A study of Rattus norvegicus with 15 samples.

Results

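Gastrocnemius muscle, a hindlimb muscle of mainly fast fibers, was compared in male Wistar rats between 4 rats fed 8% casein (LP) and 4 rats fed 15% casein (CN) for 4 weeks after weaning, which are 8 of the 15 arrays of the series that were used here. The arrays were chosen by group alone: the 7 arrays of the three-month groups were left out, and all probe sets except the controls were kept. The rats were bought at 3.5 weeks of age and were all given the 15% casein diet at first. Both diets had the same calories, and the muscle was taken from every rat after a 16 h fast. Total RNA of each rat was hybridized to 1 Affymetrix GeneChip expression array of the rat genome. The study picked rats whose body weight lay near the mean of their group, so the spread between these rats may be smaller than that of the groups they came from. All rats were anesthetized with isoflurane after the fast. No gene was altered and no drug was given as a treatment. The comparison asks what a diet low in protein does to the transcripts of a growing muscle.

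Skeletal muscle holds most of the amino acids of the body. When protein or energy is short it can release them by breaking down its own proteins, through ubiquitin ligases such as Fbxo32 (atrogin-1) and Trim63 (MuRF1), the proteasome and autophagy. Ligases of this kind are induced by FoxO transcription factors and by glucocorticoids, and insulin and insulin-like growth factor hold FoxO factors back. Muscle is also the main site where branched-chain amino acids lose their amino group, the first step of their degradation.

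Values are log2 signals, so that a difference of 1 is 2-fold, and each change below is the LP mean minus the CN mean with its standard error (SE). Signals ran from 5.24 to 14.1, and any 2 arrays correlated at a Pearson's r of 0.997 to 0.999 across all their probe sets, which do not count as replicates. Of 31042 probe sets, 3974 (12.8%) had an SD over 0.01 across the 8 arrays and are called varying here. The other 27068 were nearly constant across the arrays, bright probe sets among them, after the probes had been summed up with FARMS. One probe set stands for a gene, which gave 14217 genes, 2674 of them varying. As a check of the tissue, the muscle genes Acta1 (skeletal actin) and Ckm (muscle creatine kinase) stood at 14.1 and 14.0 in all 8 rats. The sum of 16 muscle fiber markers on the linear scale was 159603 to 160248 in CN and 159031 to 159893 in LP, and 8 of the 16 were nearly constant. Whether a marker of another cell type changes because cells are fewer or because each holds less RNA cannot be told apart in such bulk samples.

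The rats of both groups lay in the same order along the first principal component of the varying probe sets, which held 33.5% of the variance. Replicate numbers 1 and 2 scored −8.21 and −2.31 in CN and −7.96 and −3.76 in LP. Replicate numbers 3 and 4 scored 2.47 and 5.22 in CN and 7.0 and 7.55 in LP. The second component, with 23.8% of the variance, held the diets apart, at −8.22 to −2.34 in CN and 0.36 to 7.87 in LP. On this component LP replicates 1 and 3 stood far from CN, at 7.87 and 6.95, and LP replicates 2 and 4 stood near it, at 0.36 and 1.53. The labels do not say what the numbers stand for.

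**Figure D1:**
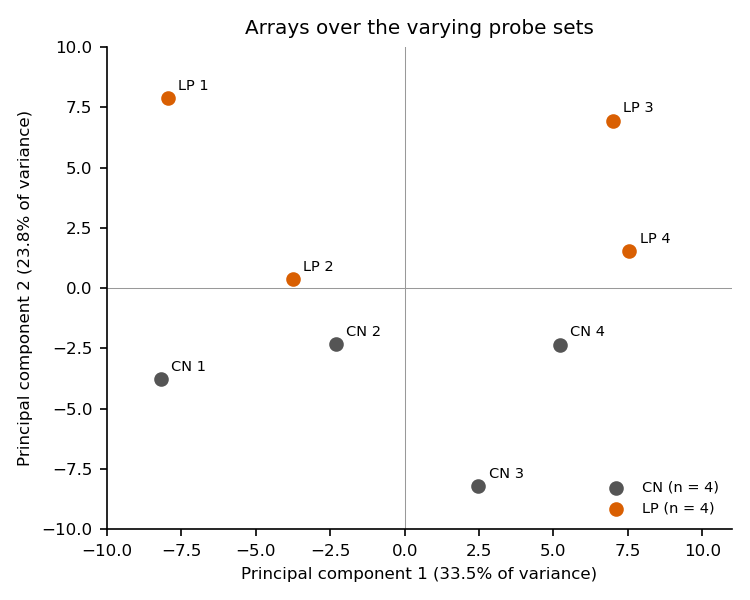
Scores of the 8 arrays on the first (x axis) and second (y axis) principal component of the 3974 varying probe sets, with 1 point for each rat. Replicates 1 and 2 of both diets lie on the left and replicates 3 and 4 on the right, and all 4 LP rats score above the CN rats on the second component, by a small margin for LP replicate 2.

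Rank products, the method of the study, ranks the difference of every LP array from every CN array over all probe sets and calls were made where the share of false positives it estimates (pfp) was at most 0.05. It called 522 probe sets higher in LP (1.68% of those tested) and 492 lower (1.58%), 3.26% in either direction. Counted by the probe set that stands for a gene, 344 genes were called higher (2.42%) and 285 lower (2.00%), 4.42% in either direction and all of them varying genes. The median size of these changes was 0.19, and 11 genes passed 1.5-fold. CN and LP values did not overlap for 149 varying genes higher in LP (5.57%) and for 61 lower (2.28%), 7.85% in both directions together. By probe set these were 215 higher and 99 lower (7.90% of the varying ones), and with each array centred on its median 163 higher and 124 lower. limma called 0 probe sets at an adjusted p up to 0.05 (smallest adjusted p = 0.0742). At an unadjusted p under 0.05 it had 2342, and 998 with each array centred on its median.

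Rank products permutes values as if all probe sets varied alike, and when it was run on the 3974 that vary it called 11 higher and 20 lower. Its calls also hang on the number of rats: without any 1 LP rat it called 104 to 195 probe sets higher instead of 522, and without any 1 CN rat 133 to 271 lower instead of 492. A call lost in this way is therefore the common case, and it was kept without each of the 8 rats in turn for 37 genes called higher and 40 called lower. In 17 and 19 of these the groups did not overlap either. One gene, Ankrd1, a stretch-induced ankyrin repeat protein, was called in both directions and counts in neither. Its signal was 8.39, 8.91, 10.99 and 10.85 in CN and 8.17, 9.59, 10.92 and 10.85 in LP, which set replicates 1 and 2 apart from 3 and 4 and not the diets. Rrad, a small GTPase, was called higher although its mean was lower in LP (−0.11, SE 0.63, and −0.49 to 0.30 without 1 rat).

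**Figure D2:**
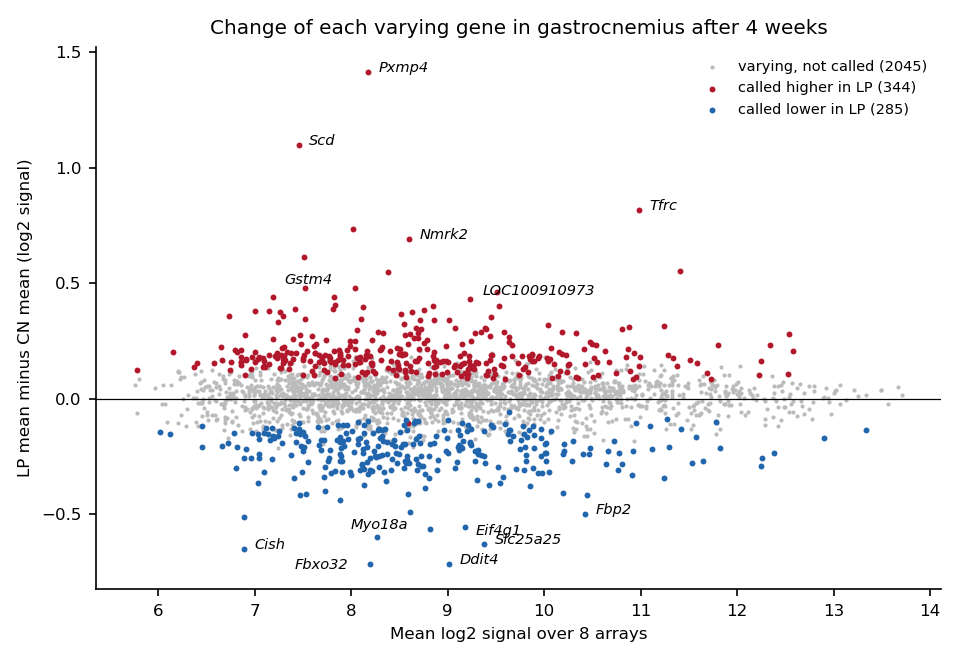
Change of each varying gene (y axis, LP mean minus CN mean, log2 signal) against its mean log2 signal over the 8 arrays (x axis). The 344 genes called higher and 285 called lower lie at all signal levels, and the largest change is that of Pxmp4, at 1.42.

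Fbxo32, the ubiquitin ligase atrogin-1, had the largest change among the genes that were called lower without each rat in turn and did not overlap. Its signal was 9.0, 8.10, 8.83 and 8.26 in CN and 7.75, 7.99, 7.51 and 8.08 in LP (−0.72, SE 0.25, a 1.64-fold difference). All 4 LP rats stood below the lowest CN rat, but the margin between CN replicate 2 and LP replicate 4 was small. Myo18a, an unconventional myosin, was at 9.14, 8.96, 9.34 and 8.94 in CN and at 8.18, 8.85, 8.19 and 8.90 in LP (−0.56, SE 0.22). Eif4g1, the scaffold of the cap-binding complex that starts translation, was at 9.40, 9.39, 9.84 and 9.21 in CN and at 8.74, 9.21, 8.66 and 9.02 in LP (−0.55, SE 0.19). In both of them LP replicates 1 and 3 were far below every CN rat, while LP replicates 2 and 4 were at or just under the lowest. Clip1, which binds the growing ends of microtubules, was also lowest in LP replicates 3 and 1, with −0.37 (SE 0.11) in the probe set that stands for it and −0.57 (SE 0.20) in a dimmer one whose groups overlapped.

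The next genes in size among those called lower were of several kinds. Ampd3, an AMP deaminase, was at 8.38 to 8.64 in CN and at 7.86, 8.29, 8.27 and 8.29 in LP (−0.36, SE 0.12), so that LP replicate 1 lay apart from the other LP rats. Pir (pirin), a nuclear protein, was at 7.40 to 7.70 in CN and 7.13 to 7.28 in LP (−0.34, SE 0.08), with no overlap. Bcat2, the mitochondrial transaminase that takes the amino group from leucine, isoleucine and valine, changed by −0.30 (SE 0.12), and by −0.19 without LP replicate 1. Mybpc2, the myosin-binding protein C of fast fibers, was at 12.36 to 12.42 in CN, where the rats hardly differed, and at 12.00, 12.26, 11.93 and 12.22 in LP (−0.29, SE 0.08). Gas5, a non-coding RNA that hosts small nucleolar RNAs and can bind the glucocorticoid receptor, changed by −0.27 (SE 0.08). A further 3 genes act in making or clearing proteins: Ecpas, a scaffold of the proteasome, changed by −0.29 (SE 0.09), Esf1, which processes ribosomal RNA, by −0.28 (SE 0.09) and Naa15, a subunit of an amino-terminal acetyltransferase, by −0.27 (SE 0.10). Psme4 (−0.31), Mt2A (−0.31) and Pde4d (−0.28) complete the 15.

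Among the genes called higher by the same rule, the iron importer Tfrc led, at 10.97, 10.17, 10.60 and 10.58 in CN and 12.05, 11.09, 11.46 and 10.98 in LP. The highest CN rat and the lowest LP rat were nearly equal. An uncharacterized long non-coding RNA, LOC100910973, was at 9.10, 9.01, 8.88 and 9.06 in CN and at 9.60, 9.41, 9.44 and 9.34 in LP (0.43, SE 0.07), with a clear gap between the groups. Ufsp1, a protease of the ubiquitin-like protein UFM1, changed by 0.39 (SE 0.13) and Cyyr1, a small membrane protein, by 0.34 (SE 0.17, and 0.20 without CN replicate 3). Bhlhe41, a repressor of the circadian clock, was at 8.53 to 8.64 in CN and 8.74 to 9.0 in LP (0.30, SE 0.07), and Nqo2, a quinone reductase, was at 7.85 to 8.02 and 8.12 to 8.28 (0.30, SE 0.05). Both had groups that were tight and apart. Reep1, which shapes the endoplasmic reticulum, changed by 0.28 (SE 0.08), Palldl1 by 0.31 (SE 0.13), and the non-coding RNA LOC102549097 by 0.26 (SE 0.05). Kdr, Bst2, Lamb1, Uqcrfs1, Acaca and Ifit2 are described with their groups below. Over all 30 genes the changes were 1.19 to 1.76-fold, and limma's adjusted p were 0.53 to 0.69.

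**Figure D3:**
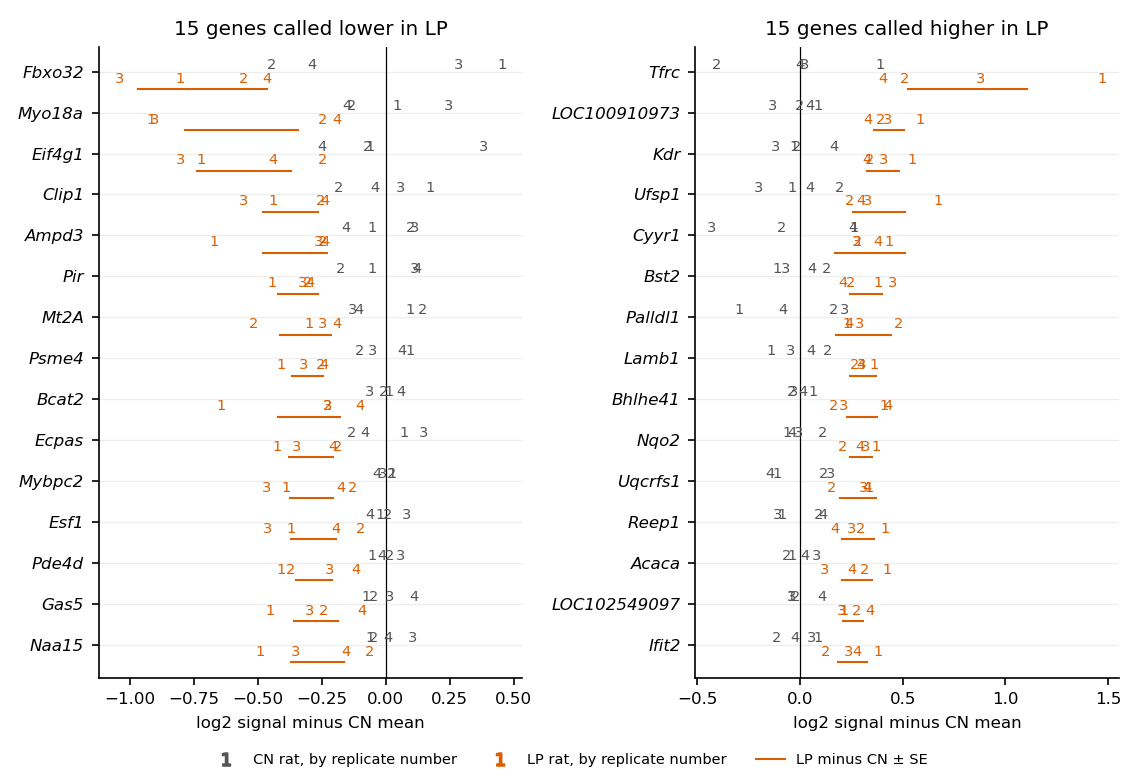
Log2 signal of each rat minus the CN mean (x axis) for the 15 genes with the largest change in each direction, with each digit at the value of the CN (grey) or LP (orange) rat of that replicate number, and lines for the LP minus CN change ± SE. In most genes on the left LP replicates 1 and 3 are lowest, and LP replicates 2 and 4 lie close to the CN rats.

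The low signals were shared unevenly between the LP rats. LP replicates 1 and 3 were the 2 lowest arrays in 159 of the 285 genes called lower (55.8%) and in 13 of the 15 largest, against 311 of all 2674 varying genes (11.6%). The median difference from the CN mean over the 285 genes was −0.29 in LP replicate 1 and −0.31 in LP replicate 3, but −0.086 in LP replicate 2 and −0.15 in LP replicate 4. For the 344 genes called higher the medians of the 4 LP rats were 0.18, 0.16, 0.19 and 0.14. LP replicates 1 and 3 were the 2 highest arrays in 59 of them (17.2%) and in 7 of the 15 largest, against 181 of all varying genes (6.77%), and the highest array was LP replicate 1 in 100, LP replicate 3 in 116 and LP replicates 2 and 4 in 56 each. These genes were called on the same values, so the counts describe the calls and test nothing.

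Other probe sets did not always show the change of the one that stands for a gene. The 30 genes have 27 further probe sets, of which 15 were nearly constant, 9 were called in the same direction and 0 in the other. Tfrc, Clip1, Esf1, Eif4g1 and Ifit2 were called by 2 probe sets each, and Psme4 and Pde4d by 3. Myo18a and Mybpc2 had only nearly constant others. A nearly constant probe set was the brightest of the gene in Myo18a, Eif4g1, Ecpas, Mybpc2 and Esf1. For Ecpas the other varying probe sets differed by 0.08 and −0.13, and for Naa15 by 0.03, and none was called.

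Some of the largest changes came from genes whose groups overlapped. Pxmp4, a peroxisomal membrane protein, changed most of all called genes, by 1.42 (SE 0.51, 2.67-fold). Its signal was 7.43, 7.46, 7.38 and 7.59 in CN and 9.22, 7.44, 9.02 and 9.84 in LP, so that 3 LP rats stood far above and LP replicate 2 stood with CN. Nmrk2, a muscle nicotinamide riboside kinase that feeds NAD synthesis, was at 7.58, 8.17, 8.58 and 8.67 in CN and 8.60, 8.90, 9.33 and 8.95 in LP (0.69, SE 0.29), and its call held without each rat. Cish, the feedback inhibitor that growth hormone and STAT5 induce, was at 7.19, 8.46, 6.60 and 6.59 in CN and 6.44, 6.70, 6.57 and 6.53 in LP. Its change of −0.65 (SE 0.44) rested on CN replicate 2, without which it was −0.23 and not called. Myl4, the embryonic myosin light chain, changed by −0.60 (SE 0.38), and by −0.25 without LP replicate 2, the one LP rat below the rest.

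Gene lists drawn from general knowledge are given next, each by how many of its measured members were called. Over all 14217 genes, varying or not, 2.42% were called higher and 2.00% lower. All 344 genes called higher and 285 called lower were among the 2674 varying genes. A list with many varying members can thus exceed the shares over all genes for that reason alone. The lists were chosen with earlier results of these data known, so their shares describe the calls and test nothing.

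**Figure D4:**
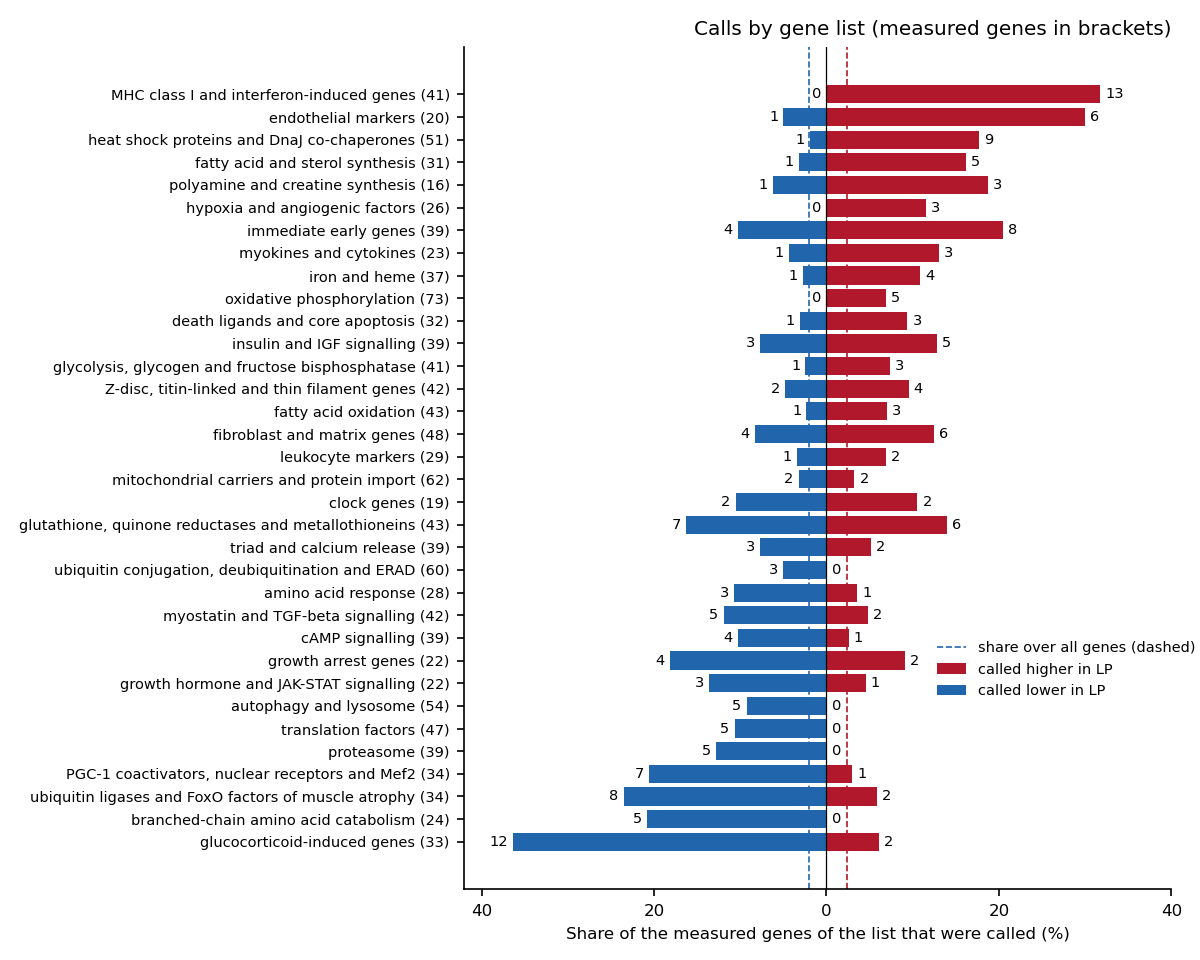
Share of the measured genes of each list that were called higher (right, red) or lower (left, blue) in LP, in percent, for lists with at least 3 calls. Numbers at the bars are counts of genes, numbers in brackets are measured genes, and dashed lines mark the shares over all genes, varying or not. MHC class I and interferon genes stand at one end, with 13 of 41 called higher, and glucocorticoid-induced genes at the other, with 12 of 33 called lower.

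Ubiquitin ligases and FoxO factors of muscle atrophy were called lower in 8 of 34 measured genes and higher in 2. Of the 19 varying members 15 had a lower mean in LP, with a median of −0.093 against 0.020 over all varying genes. Trim63, which tags sarcomere proteins, was at 11.22, 11.37, 11.63 and 11.43 in CN and 10.78, 11.08, 10.93 and 11.50 in LP (−0.34, SE 0.18). LP replicate 4 was as high as the CN rats, and without CN replicate 3 the change was −0.27 and not called. Foxo1 itself changed by −0.27 (SE 0.19, −0.13 without LP replicate 1), the deubiquitinase Usp2 by −0.21 (SE 0.10), Fbxo31 by −0.18 (SE 0.08) and Trim54 (MuRF3) by −0.10 (SE 0.03). These 4 calls were lost without any of 3 or 4 rats. The 2 genes called higher, Klhl40 (0.19, SE 0.34) and Rnf115 (0.20, SE 0.28), had errors larger than their changes. Without 1 rat they ran from −0.021 (CN replicate 1) to 0.40 (CN replicate 3) and from 0.04 (CN replicate 1) to 0.39 (LP replicate 1), and in both diets their replicate 1 was the lowest.

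The promoter of Trim63 is shown because it holds both the FoxO and the glucocorticoid receptor motif side by side. The sequence runs from 250 bases before the transcription start to 50 bases after it (RefSeq, build GRCr8, chr5:151816986-151817285, plus strand). Capitals mark a match to the palindrome of the glucocorticoid receptor (GNACA and TGTNC with any 3 bases between them, at position −219 from the start) and, after 1 further base, to the FoxO motif (GTAAACA or its reverse complement, at −205). The 2 matches do not overlap.
Trim63: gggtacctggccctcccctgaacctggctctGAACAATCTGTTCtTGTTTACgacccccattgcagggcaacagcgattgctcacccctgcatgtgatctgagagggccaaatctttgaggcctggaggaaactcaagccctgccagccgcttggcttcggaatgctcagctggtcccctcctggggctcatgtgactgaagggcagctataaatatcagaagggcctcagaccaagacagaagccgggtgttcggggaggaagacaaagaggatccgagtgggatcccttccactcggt
Among 10945 genes whose promoter was given, 39 (0.356%) hold the first motif on either strand and 272 (2.49%) the second. Of the 220 genes called lower that have a promoter, 1 holds the first, which is Trim63, and 7 (3.18%) the second. Of the 261 genes called higher with a promoter, 1 holds the first and 12 (4.60%) the second, a larger share than among those called lower. Of 28 promoters of the list of ubiquitin ligases and FoxO factors, 1 holds the first, which is Trim63, and 2 the second. Of 24 promoters of the glucocorticoid-induced genes, 0 hold the first and 1 the second. Trim63 is thus not typical of these lists. A match describes the letters of this window only.

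Proteins that clear other proteins by autophagy were called lower in 5 of 54 measured genes and higher in 0. Sqstm1 (p62), the adaptor that brings ubiquitinated cargo to autophagosomes, was at 11.36, 11.38, 11.43 and 11.43 in CN and 11.15, 11.19, 11.21 and 11.22 in LP (−0.21, SE 0.02). Every LP rat was below every CN rat and the spread within each group was a fraction of the gap. Gabarapl1, a FoxO target that coats autophagosomes, was called lower by both its probe sets (−0.24, SE 0.09, and −0.22, SE 0.10), as was the lysosomal protease Ctsl (−0.23, SE 0.10, and −0.26, SE 0.13). Mitf (−0.28, SE 0.14, −0.16 without LP replicate 3) and the autophagy starter Rb1cc1 (−0.12, SE 0.03) were the other 2. Of 19 varying members 11 had a lower mean and 8 a higher one, so the list as a whole did not lean as the 5 do. In the proteasome list, 5 of 39 members were called lower and 0 higher. Psmb9, a subunit of the immunoproteasome, is not in this list and was called higher (0.15, SE 0.06). Of the 18 varying members of the list 17 had a lower mean, with a median of −0.053. Median differences from the CN mean over the 18 were −0.030, −0.058, −0.023 and 0.099 in CN replicates 1 to 4. In LP replicates 1 to 4 they were −0.087, −0.077, −0.034 and −0.050. CN replicate 4 thus stood above all other rats, and LP replicates 3 and 4 lay within the range of the CN rats.

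Branched-chain amino acid catabolism had 5 of 24 measured genes called lower and 0 called higher. Of its 13 varying members 11 had a lower mean, with a median of −0.11. Bcat2 was at 8.71, 8.69, 8.64 and 8.76 in CN and at 8.06, 8.47, 8.47 and 8.60 in LP, and Dbt, the core of the dehydrogenase that commits the carbon skeletons to breakdown, was at 10.16, 9.93, 10.06 and 9.99 in CN and 9.58, 9.82, 9.59 and 9.95 in LP (−0.30, SE 0.10). Bcat2 did not overlap, and in Dbt LP replicate 4 reached into the CN range. Further down the leucine path, Ivd changed by −0.19 (SE 0.13, −0.11 without LP replicate 1), and Acadsb, of the isoleucine path, by −0.13 (SE 0.06, −0.08 without LP replicate 1). Klf15, the factor that induces this pathway in fasting, was at −0.13 (SE 0.21), and ran from −0.02 without LP replicate 1 and −0.05 without LP replicate 2 to −0.32 without LP replicate 4. The calls of Ivd, Acadsb and Klf15 were lost without any of 4 to 6 rats. Median differences from the CN mean over the 13 genes were −0.16, −0.040, −0.11 and 0.006 in LP replicates 1 to 4, with 2 LP rats near the controls.

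Genes that glucocorticoids induce were called lower in 12 of 33 measured genes and higher in 2. Of 27 varying members 20 had a lower mean, with a median of −0.12. Ddit4 (REDD1), an inhibitor of mTORC1, was at 10.32, 9.63, 9.11 and 8.43 in CN and 10.13, 9.01, 7.64 and 7.83 in LP (−0.72, SE 0.70). The spread within each diet was larger than the change, and without 1 rat it ran from −1.21 (LP replicate 1) to −0.38 (LP replicate 3), being −0.40 without CN replicate 1 and −0.44 without LP replicate 4. The transcription factor Cebpd changed by −0.49 (SE 0.36, −0.27 and not called without CN replicate 1, −0.30 without LP replicate 3), its relative Cebpb by −0.21 (SE 0.08), and the cell cycle inhibitor Cdkn1a by −0.31 (SE 0.22, −0.15 and not called without CN replicate 4, −0.18 without LP replicate 3). A second, dimmer probe set of Cdkn1a was at 8.13, 7.74, 7.89 and 7.91 in CN and 7.14, 7.48, 6.54 and 7.23 in LP, was called lower too (−0.82, SE 0.21) and did not overlap. Glutamine synthetase (Glul) was called lower by all 3 probe sets, at −0.28 (SE 0.18, −0.17 without CN replicate 1), −0.41 and −0.34. Pdk4, the kinase that shuts pyruvate dehydrogenase in fasting, was at 12.40 to 12.65 in CN and 12.10, 12.34, 12.16 and 12.48 in LP (−0.23, SE 0.10). Hsd11b1, which regenerates active glucocorticoid inside cells, was one of the 2 called higher, at 8.32 to 8.41 in CN and 8.47 to 8.55 in LP (0.13, SE 0.03), with no overlap. Ddit4 and Cebpd also differed between the replicate numbers, since numbers 1 and 2 were above 3 and 4 in both diets.

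Of 47 translation factors 5 were called lower and 0 higher, though 6 of the 16 varying ones had a higher mean. Besides Eif4g1, these were the initiation inhibitor Eif4ebp1 (−0.24, SE 0.14, −0.13 without LP replicate 1), Eif3j (−0.24, SE 0.07), Eif5b and the elongation factor of mature muscle, Eef1a2 (10.96 to 11.09 in CN and 10.84 to 10.94 in LP, −0.11, SE 0.04). Eif3j and Eef1a2 did not overlap. Of 42 cytosolic ribosomal proteins 0 were called by rank products, 1 had an unadjusted limma p under 0.05, and 11 of 12 varying ones had a slightly higher mean (median 0.023). Genes of the amino acid response, which uncharged transfer RNAs switch on through Atf4, were called higher in 1 of 28 and lower in 3. Chac1, a target of Atf4, was at 9.97, 10.46, 10.30 and 10.11 in CN and 9.42, 9.81, 10.08 and 10.27 in LP (−0.32, SE 0.21, −0.16 without LP replicate 1), and Atf3, the one called higher, was at 0.24 (SE 0.26, 0.06 without LP replicate 2, 0.12 without CN replicate 2 and 0.42 without LP replicate 4). Among amino acid transporters, Slc38a4 was called lower (−0.27, SE 0.12) with no overlap, but the call was lost without CN replicate 3 (−0.19).

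In the synthesis of polyamines, small cations made from ornithine that growing cells need, and of creatine, 3 of 16 genes were called higher and 1 lower, all 4 of them on the polyamine side. The rate-limiting enzyme Odc1 was at 8.93, 9.28, 9.20 and 9.07 in CN and 9.38, 9.10, 9.65 and 9.35 in LP (0.25, SE 0.14, 0.15 without LP replicate 3). Azin1, which shields Odc1 from its antizyme, was at 8.50 to 8.76 in CN and 8.84 to 9.06 in LP (0.25, SE 0.08) with no overlap, though another varying probe set of it differed by 0.07 (SE 0.04) and was not called, and Amd1, which makes the aminopropyl donor, changed by 0.23 (SE 0.08). Spermine synthase (Sms) was the one called lower, at −0.18 (SE 0.10, −0.12 without LP replicate 3). The 3 calls for higher genes were lost without LP replicate 3 and, for Odc1 and Amd1, without LP replicate 1, and of the 8 varying members 5 had a lower mean.

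Signalling by insulin and growth factors had 5 of 39 genes called higher and 3 lower. A pair of parts of the mTOR complexes were among those higher: Deptor, an inhibitor of both complexes, was at 10.34, 10.34, 10.18 and 10.34 in CN and 10.56, 10.55, 10.56 and 10.40 in LP (0.22, SE 0.06), and Rictor, of complex 2, changed by 0.13 (SE 0.04). Neither overlapped, though a second, dimmer probe set of Deptor differed by −0.20 (SE 0.16) and was not called. Gsk3b, which insulin inhibits, was called lower (−0.22, SE 0.08). Deptor, Rictor and Gsk3b lost their calls without any of 3 or 4 rats.

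MHC class I and interferon-induced genes were called higher in 13 of 41 measured genes and lower in 0. Counted by any probe set, 13 were called higher and 1 lower. Class I molecules show peptides made by the proteasome to cytotoxic T cells, and interferons raise them together with antiviral genes. All 23 varying members had a higher mean in LP, where 59.9% of all varying genes did, with a median of 0.12, and 7 of the 23 did not overlap. Bst2 (tetherin), which holds budding viruses to the cell, was at 9.77, 10.01, 9.81 and 9.94 in CN and 10.26, 10.13, 10.33 and 10.09 in LP (0.32, SE 0.08). Ifit2, an antiviral protein that binds RNA, was at 8.17, 7.97, 8.14 and 8.06 in CN and 8.46, 8.21, 8.32 and 8.36 in LP (0.25, SE 0.07). In both genes every LP rat exceeded every CN rat, by a narrow margin at LP replicates 4 and 2, and they are the 2 members whose calls held without each rat.

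The light chain of class I molecules, B2m, was at 12.16, 12.23, 12.08 and 12.18 in CN and 12.39, 12.28, 12.35 and 12.28 in LP, with the same change (0.16, SE 0.04) in both probe sets. The class I heavy chain RT1-S3 was called by all 4 of its probe sets, at 0.29 (SE 0.11) in the one that stands for it and 0.10 to 0.30 in all, but such probe sets can also detect related class I genes. Another heavy chain, RT1-CE10, was at 0.22 (SE 0.21) at 0.07 without CN replicate 3 and at 0.14 without LP replicate 2. Psmb9, a subunit of the immunoproteasome, changed by 0.15 (SE 0.06), the interferon regulator Irf7 by 0.20 (SE 0.08), the interferon signalling inhibitor Usp18 by 0.16 (SE 0.06) and the interferon-induced GTPase Igtp by 0.10 (SE 0.02). B2m, Psmb9, Usp18 and Igtp did not overlap, and their calls were lost without any 1 LP rat. Median differences from the CN mean over the 23 genes were 0.091, 0.075, 0.15 and 0.11 in LP replicates 1 to 4, so that the 4 LP rats were alike here. Leukocytes, another source of such transcripts, are covered by 29 measured markers, with 2 calls for higher and 1 for lower. Their summed linear signal was 4996 to 5494 in CN and 4974 to 5622 in LP, and the defining markers Ptprc and Cd68 were nearly constant. The part of leukocytes in the result was not tested.

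Promoters of 3 called members are shown because they hold the element through which interferon-activated factors work. Each runs from 250 bases before to 50 bases after the transcription start (RefSeq, build GRCr8). Capitals mark matches to the interferon-stimulated response element, searched on both strands as GAAA and a further GAAA with any 2 bases between them. Bst2 (chr16:18254918-18255217, minus strand) has 2 overlapping matches, at −131 and −125 from the start. B2m (chr3:129549080-129549379, plus strand) has 1 at −150, and Irf7 (chr1:205799974-205800273, minus strand) has 1 on the opposite strand at −69.
Bst2: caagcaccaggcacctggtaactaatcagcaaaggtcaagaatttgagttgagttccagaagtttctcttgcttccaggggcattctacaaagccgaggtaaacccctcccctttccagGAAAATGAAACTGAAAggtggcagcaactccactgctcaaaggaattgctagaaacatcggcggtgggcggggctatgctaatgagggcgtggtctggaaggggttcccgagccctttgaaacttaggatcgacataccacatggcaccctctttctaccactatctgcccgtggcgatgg
B2m: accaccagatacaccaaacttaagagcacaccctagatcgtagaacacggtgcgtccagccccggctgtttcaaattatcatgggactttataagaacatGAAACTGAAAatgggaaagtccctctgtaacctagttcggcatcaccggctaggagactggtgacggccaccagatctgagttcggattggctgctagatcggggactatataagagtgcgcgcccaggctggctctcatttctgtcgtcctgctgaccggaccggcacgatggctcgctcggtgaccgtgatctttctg
Irf7: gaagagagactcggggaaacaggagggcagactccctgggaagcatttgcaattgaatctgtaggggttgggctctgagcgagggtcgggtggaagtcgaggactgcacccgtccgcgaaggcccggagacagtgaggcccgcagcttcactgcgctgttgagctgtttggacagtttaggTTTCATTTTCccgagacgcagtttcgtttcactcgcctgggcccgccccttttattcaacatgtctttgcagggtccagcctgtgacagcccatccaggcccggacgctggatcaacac
The element is held by 22 of the 35 list members whose promoter was given (62.9%), against 327 of 10945 genes in all (2.99%). It was held by 7 of the 11 called members with a promoter and by 15 of the 24 not called, which are nearly equal shares. Over all genes it was held by 12 of 261 called higher (4.60%) and 6 of 220 called lower (2.73%).

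**Figure D5:**
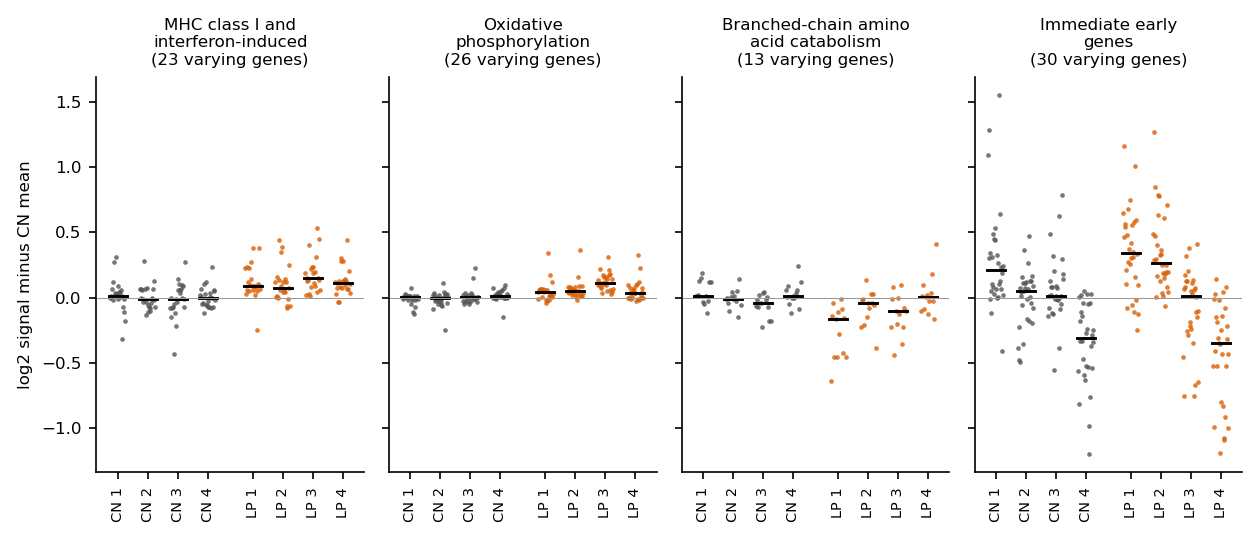
Log2 signal minus the CN mean of the gene (y axis) in each of the 8 rats (x axis) for the varying members of 4 lists, with 1 point for each gene and a bar at the median. The medians of interferon and oxidative phosphorylation genes lie above zero in all 4 LP rats, those of branched-chain genes are lowest in LP replicates 1 and 3, and immediate early genes have their lowest median in replicate 4 of both diets.

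Oxidative phosphorylation was called higher in 5 of 73 measured genes and lower in 0, and 25 of its 26 varying members had a higher mean in LP, with a median of 0.062. The largest change was that of Uqcrfs1, the Rieske iron-sulfur protein of complex III, at 12.29, 12.51, 12.55 and 12.25 in CN and 12.74, 12.55, 12.71 and 12.73 in LP (0.28, SE 0.09). LP replicate 2 was level with the highest CN rat, and the other 3 were clearly above. Cox7a1, the muscle isoform of a complex IV subunit, changed by 0.24 (SE 0.11, 0.16 without CN replicate 2) and Ndufc1 of complex I by 0.09 (SE 0.03, 0.06 without LP replicate 3). In 9 of the 26 the groups did not overlap, beside the 7.85% of all varying genes. Among 34 PGC-1 coactivators, nuclear receptors and Mef2 factors 7 were called lower and 1 higher, with Mef2c at −0.27 (SE 0.19, −0.13 without LP replicate 3) and the kinase Camk2b at −0.26 (SE 0.10).

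Fat and sterol synthesis had 5 of 31 genes called higher and 1 lower. Acaca, the carboxylase that makes malonyl-CoA, was at 7.26 to 7.41 in CN and 7.75, 7.64, 7.45 and 7.58 in LP (0.28, SE 0.07), with no overlap. The other members called higher were less even among the LP rats. Scd, a desaturase, was at 7.40, 6.93, 6.43 and 6.87 in CN and 8.72, 7.27, 6.68 and 9.35 in LP, and Thrsp, which promotes fat synthesis, at 6.79, 6.42, 6.48 and 6.50 in CN and 7.03, 6.60, 6.27 and 7.72 in LP. In both LP replicates 4 and 1 were high and LP replicate 3 was as low as CN. Scd changed by 1.10 (SE 0.65), by 0.65 without LP replicate 4 and by 1.54 without LP replicate 3. Thrsp changed by 0.36 (SE 0.32), by 0.08 without LP replicate 4 and by 0.57 without LP replicate 3, Fasn by 0.18 (SE 0.08, 0.11 without LP replicate 4) and Elovl5 by 0.16 (SE 0.05). The fat cell hormone Adipoq had the same order, at 7.49, 6.81, 6.47 and 8.01 in LP and 6.47 to 7.27 in CN, with a change of 0.38 (SE 0.38), 0.11 without LP replicate 4 and 0.62 without LP replicate 3. Of 19 adipocyte markers 1 was called higher and 1 lower, their sum was 23185 to 25563 in CN and 22275 to 25078 in LP, and the markers Lep and Plin1 were nearly constant. The median difference from the CN mean over the 11 varying adipocyte markers was 0.27 in LP replicate 4, where Scd, Thrsp, Fasn and Adipoq were highest, and −0.13, −0.0053 and −0.087 in LP replicates 1 to 3. The part of fat cells in these changes was not tested. Insig1, which holds back sterol synthesis, was called lower (−0.25, SE 0.09).

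Iron and heme genes were called higher in 4 of 37 and lower in 1, though 7 of the 12 varying members had a lower mean (median −0.012). Besides Tfrc these were Alas1, the rate-limiting enzyme of heme synthesis outside red cells (8.69, 8.82, 8.93 and 9.24 in CN and 9.08, 9.19, 9.43 and 9.22 in LP, 0.31, SE 0.14), the iron exporter Slc40a1 (0.19, SE 0.04, with no overlap) and the metalloreductase Steap4 (0.18, SE 0.06). In Alas1 one CN rat, replicate 4, was as high as the LP rats. Ceruloplasmin (Cp), a copper protein that oxidizes iron, was called lower (−0.27, SE 0.12, −0.18 without CN replicate 2). Erythrocyte markers summed to 4157 to 5381 in CN and 4145 to 4854 in LP.

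Enzymes of glutathione, quinones and metals were called in both directions, 6 of 43 higher and 7 lower. Gstm4, a glutathione transferase, was at 8.02, 7.47, 8.34 and 7.39 in CN and 8.16, 8.06, 8.50 and 8.42 in LP (0.48, SE 0.25), and its call held without each rat. Mgst1, a microsomal transferase, changed by 0.39 (SE 0.25, 0.24 without LP replicate 4), with LP replicate 3 at the CN level. Among those lower were Gsta1 (−0.26, SE 0.11, with no overlap) and Gclm, the modifier subunit of the enzyme that limits glutathione synthesis (−0.18, SE 0.06). Heat shock proteins and co-chaperones were called higher in 9 of 51 and lower in 1, Hsp90ab1 (−0.25, SE 0.09), whose other varying probe set, of nearly the same brightness, differed by −0.012 (SE 0.02) and was not called. The inducible Hspa1a was at 10.91, 11.12, 10.92 and 11.38 in CN and 11.48, 12.03, 11.32 and 10.77 in LP (0.31, SE 0.28, 0.10 without LP replicate 2 and 0.53 without LP replicate 4), and LP replicate 4 was the lowest of all. In Dnaja1 too LP replicate 2 was the highest and LP replicate 4 the lowest rat (0.23, SE 0.24, 0.10 without LP replicate 2, 0.12 without LP replicate 1 and 0.43 without LP replicate 4), whereas Dnaja4 (0.18, SE 0.03) and Hspa4 (0.11, SE 0.03) did not overlap. A dimmer probe set of Dnaja4 differed by 0.03 (SE 0.04) and was not called.

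Of 20 endothelial markers 6 were called higher and 1 lower, and their summed linear signal was 8033 to 8375 in CN and 8657 to 8898 in LP, with no overlap. The LP average fell below that of CN for 4 of the 15 varying markers and exceeded it for 11 (median change 0.10). Changes are listed here only for markers called higher. Kdr, the main receptor of vascular endothelial growth factor, was at 8.62, 8.63, 8.53 and 8.81 in CN and 9.19, 8.98, 9.05 and 8.97 in LP. Emcn changed by 0.27 (SE 0.14, 0.18 without LP replicate 1), the tight junction protein Cldn5 by 0.19 (SE 0.12, 0.13 without LP replicate 1) and the water channel Aqp1 by 0.17 (SE 0.06). Pecam1 was nearly constant, and Kdr was the one whose call held without each rat. Caveolins, which coat the membrane pits that abound in endothelium, fat cells and smooth muscle, were higher in 2 forms with no overlap: Cav1 by all 3 probe sets (0.14, SE 0.04, and 0.20 in the others) and Cav2 by 1 of 4 (0.20, SE 0.04).

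Among 48 fibroblast and matrix genes, 40 of them varying, 6 were called higher and 4 lower. Counted by any probe set, 7 were called higher and 7 lower. Lamb1, a laminin chain, was at 9.10, 9.38, 9.20 and 9.29 in CN and 9.60, 9.50, 9.54 and 9.54 in LP (0.30, SE 0.06). Its LP rats were nearly equal and above every CN rat. Nid2 changed by 0.22 (SE 0.10), Lama4 by 0.12 (SE 0.04) and Lamc1 by 0.09 (SE 0.04, 0.06 without CN replicate 1), and the collagens Col4a1 (0.18, SE 0.07, 0.11 without CN replicate 1) and Col15a1 (0.13, SE 0.06) were the other 2. Of the 4 called lower, Postn (periostin) was at 10.59, 10.97, 10.59 and 10.46 in CN and 10.48, 9.64, 10.31 and 10.52 in LP (−0.42, SE 0.23, −0.22 without LP replicate 2), Fn1 (fibronectin) at −0.24 (SE 0.12, −0.15 and not called without CN replicate 2) and Col1a2 at −0.17 (SE 0.11, −0.09 without CN replicate 2 and −0.26 without CN replicate 4), and Mmp14 was the fourth (−0.20, SE 0.16, −0.08 without LP replicate 3 and −0.13 without CN replicate 2). Tendon markers summed to 5975, 6930, 4737 and 4099 in CN and 4356 to 5213 in LP, so the LP rats lay within the CN range. Of the 8 markers 1 was called higher and 1 lower, and 7 had a lower mean. Tnmd was at 10.18, 10.64, 9.87 and 9.70 in CN and 9.76 to 10.07 in LP (−0.25, SE 0.22, −0.07 without CN replicate 2 and −0.38 without CN replicate 4). CN replicate 2 was highest in Postn, Fn1, Col1a2 and Tnmd alike. The part of tendon tissue in these changes was not tested.

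Immediate early genes, which stimuli switch on within minutes, were called higher in 8 of 39 measured genes and lower in 4. Of the 39 genes 30 were varying, and no call held without each rat. With the replicate number as a block 5 were called higher and 7 lower, which turned the balance. With pairs within numbers 1 and 2 and within 3 and 4, 11 were called higher and 3 lower. The balance thus hung on how the rats were paired. Many of them differed between the replicate numbers in both diets. Fosb was at 8.49, 6.73, 7.22 and 6.39 in CN and 8.37, 8.48, 6.45 and 6.22 in LP (0.17, SE 0.76, −0.19 to 0.60 without 1 rat), and Nr4a2 at 9.24, 7.51, 7.30 and 6.70 in CN and 8.27, 7.84, 6.93 and 6.61 in LP (−0.27, SE 0.67, −0.60 to 0.24 without 1 rat). In both genes replicate 4 was the lowest in each diet, and replicate 1 was the highest except in Fosb of LP, where replicate 2 was as high. Fos, the best known of them, differed by 0.04 (SE 0.48), was not called and stood at 9.90 to 11.55 in CN and 9.93 to 11.11 in LP. Ppargc1a, the coactivator PGC-1α, ran the other way, at 8.19 in CN replicate 1 and 8.56 in LP replicate 1 and at 9.39 to 10.38 in the other 6 rats (−0.06, SE 0.64, called lower, −0.55 to 0.29 without 1 rat). Its other probe sets were called lower too, at −0.51 (SE 0.62) and −0.07 (SE 0.63). Slc25a25, a mitochondrial carrier, changed by −0.63 (SE 0.77) but by 0.07 without LP replicate 4 and by −1.07 without LP replicate 1, and Zfp36 by −0.16 (SE 0.52, −0.55 to 0.09 without 1 rat). For these genes the change between diets was smaller than its SE, and most of their changes turned sign when 1 rat was left out. Jund was at 10.47 to 10.78 in CN and 11.19, 11.12, 10.83 and 10.68 in LP (0.30, SE 0.14).

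The clock showed 2 genes called higher and 2 lower of 19. Bhlhe41 and Rora were the 2 that held without each rat. Rora, the nuclear receptor that activates Bmal1, was at 8.65, 8.78, 9.01 and 8.73 in CN and 8.18, 8.66, 8.13 and 8.56 in LP (−0.41, SE 0.15). LP replicates 1 and 3 were low and LP replicate 2 reached the lowest CN rat. Its antagonist Nr1d1 (REV-ERBα) changed by 0.19 (SE 0.45, −0.08 to 0.43 without 1 rat), and its replicate 4 was the highest in each diet.

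Of 17 fast fiber genes 1 was called lower, Mybpc2, and 0 higher, and of 18 slow fiber genes 2 were called higher and 0 lower, although 10 of the 14 varying slow ones had a lower mean (median −0.070). The 2 were Mybph (0.35, SE 0.26, 0.19 without CN replicate 3 and 0.57 without CN replicate 4) and the Z-disc protein Csrp3 (11.58, 12.24, 12.61 and 12.48 in CN and 11.88, 12.46, 12.81 and 12.70 in LP). Replicate 1 was the lowest in both diets in Csrp3 and also in Xirp1 (0.23, SE 0.32) and Flnc (0.17, SE 0.26), actin-binding proteins that were called higher too. Without CN replicate 1 these 3 changes were 0.02, 0.03 and 0.04, and without LP replicate 1 they were 0.43, 0.42 and 0.35. Of 20 myogenic factors and satellite cell genes 2 were called higher and 0 lower, while 6 of the 9 varying ones had a lower mean (median −0.061). The 2 were Cxcr4, a chemokine receptor called higher by all 3 probe sets (0.35, SE 0.17, a call that held without each rat for the probe set that stands for it), and Spry1. Spry1, which keeps these cells quiescent, was at 7.96 to 8.07 in CN and 8.11 to 8.23 in LP (0.16, SE 0.04), with no overlap. Tnfsf10, the death ligand TRAIL, was at 7.45, 6.59, 6.62 and 7.22 in CN and 7.39, 7.20, 7.26 and 7.79 in LP (0.44, SE 0.25), and the call was lost without LP replicate 4 (0.31).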

How the data were processed

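RNA of 8 gastrocnemius muscles, 1 rat to each array, was measured on Affymetrix GeneChip expression arrays of the rat genome. The deposited values are log2 signals for each probe set, which the authors made with FARMS in R. Their settings are not given in the sources used here. No further normalization was applied. The 57 control probe sets were left out. Of 31042 probe sets 20826 carry 1 gene symbol, 436 several and 9780 none, from the platform annotation of GEO with symbols updated through RefSeq, and genes were named from the first alone. The probe set with the highest mean among the varying ones (SD over 0.01) stood for a gene.

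Rank products over all 16 pairs of an LP and a CN array ran in Python 3.11.15 (numpy 2.4.6, pandas 2.3.3), with 100 permutations, seed 1 and a pfp up to 0.05 in each direction. limma 3.58.1 ran in R 4.3.3 with Benjamini-Hochberg adjusted p. Both were tested on simulated data. The groups and gene lists were chosen with earlier results of these data known. Genes were named by a rule: in each direction the 15 with the largest change among those called without each array in turn whose groups do not overlap, up to 4 called and 2 uncalled genes of each list, and genes that the paper names. Named outside the rule, after their values were seen, were Fbxo31, Trim54, Klhl40, Rnf115, Rb1cc1, Acadsb, Eef1a2, Glul, Hsd11b1, Rictor, Steap4, Fasn, Elovl5, Irf7, B2m, Psmb9, Usp18, Igtp, Dnaja4, Hspa4, Ndufc1, Lama4, Lamc1, Col4a1, Col15a1, Col1a2, Mmp14, Ppargc1a, Fos, Fosb, Zfp36, Gsta1, Gclm, Pxmp4, Rrad, Ankrd1 and Myl4. Tendon, leukocyte, adipocyte, erythrocyte, endothelial and fiber markers were summed after taking values off the log scale. Alternatives were median centring, quantile normalization, leaving out dim probe sets, the varying probe sets alone, other pairings, thresholds and probe sets, and leaving out each array. The number of arrays limits the precision, and 4 against 4 arrays allow an exact permutation p no smaller than 0.0286.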

Additional observations from a re-analysis of the deposited data

Results flagged for a closer look

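In 18 of the 268 groups of 4 rats tested (6.72%), 1 rat lay apart from the other 3 of its diet by more than Dixon's limit, which chance alone passes in about 1 of 20 groups. Among the largest changes, Ampd3 was at 7.86 in LP replicate 1 against 8.27 to 8.29 in the other LP rats, Uqcrfs1 at 12.55 in LP replicate 2 against 12.71 to 12.74, and LOC102549097 at 7.17 in CN replicate 4 against 7.02 to 7.04. Slc38a4 was at 10.67 in CN replicate 3 against 10.32 to 10.36, and Hsd11b1 at 8.55 in LP replicate 4 against 8.47 to 8.48. Deptor was low in CN replicate 3 (10.18) and in LP replicate 4 (10.40).

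LP replicate 4 was also apart in Cp, at 8.00, and in Elovl5, at 8.80. Igtp was at 6.90 in CN replicate 4, Ndufc1 at 11.86 in LP replicate 3 and Cav1 at 11.49 in LP replicate 1. Among matrix and tendon genes, Lama4 was at 8.59 in CN replicate 2, Lamc1 at 9.94 in CN replicate 1, Fn1 at 9.88 in LP replicate 2 and Tnmd at 10.07 in LP replicate 3. The widest gaps were those of Ppargc1a, at 8.19 in CN replicate 1 against 10.02 to 10.38 in the other CN rats, and Myl4, at 6.93 in LP replicate 2 against 8.30 to 8.35. No explanation was tested.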

How the results depend on the processing

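Rank products made 1014 calls, with 1 probe set called in both directions. The count was 977 after quantile normalization, 1014 after median centring and 1072 with another seed. It was 350 (114 higher, 236 lower) with dim probe sets left out, 31 (11 and 20) over varying probe sets alone, 265 (101 and 164) at a pfp up to 0.01 and 23 (11 and 12) at 1.5-fold or more. Without 1 rat it was 521 to 906, and the loss was mostly of higher calls without an LP rat and of lower calls without a CN rat. limma called 0 probe sets in each alternative run, except where the model also set numbers 1 and 2 apart from 3 and 4, which gave 1 (adjusted p = 0.0434). Its count at an unadjusted p under 0.05 was 2342 in the main run, but 684 after quantile normalization and 998 after median centring. That count thus hung on how the arrays were scaled. It was 558 over the varying probe sets alone and at most 2643, without CN replicate 4. Probe sets whose groups did not overlap numbered 314, and 378 to 620 without 1 rat.

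The deviations of rats with the same replicate number correlated at 0.55, −0.03, 0.17 and 0.40 for numbers 1 to 4. Rats with unlike numbers were not compared in this way, so these values do not settle whether the numbers pair the rats. The main comparison did not pair them. With the replicate block, rank products called 1188 probe sets (692 higher, 496 lower) and limma 0 (smallest adjusted p = 0.205), and pairs within numbers 1 and 2 and within 3 and 4 gave 1260.

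Of 134 genes named, 132 were called and 41 of these without each rat in turn. The replicate block ended the call of 10 and quantile normalization that of 3. Taking the brightest probe set ended 11, and that probe set was nearly constant in all 11. The sign turned without 1 rat for 8 genes, whose changes ran from −0.021 to 0.40 (Klhl40), −0.080 to 0.43 (Nr1d1), −0.55 to 0.29 (Ppargc1a), −0.19 to 0.60 (Fosb), −1.07 to 0.065 (Slc25a25), −0.60 to 0.24 (Nr4a2), −0.55 to 0.091 (Zfp36) and −0.49 to 0.30 (Rrad). The cause was not tested. Most probe sets were nearly constant in the deposited values, so that a gene not called here may still differ.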
